A study of Drosophila melanogaster with 2 samples.

Results

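The segmentation and Hox patterning genes are 33 protein-coding genes that lay out the head-to-tail axis of the fly embryo. They were taken by symbol from a fixed list and were all found among the 13968 protein-coding genes on the 7 chromosome arms of the dm6 annotation. 1 of them, hairy (h), was matched through an older symbol, since the annotation lists it as hry. The list holds 2 maternal genes, 6 gap genes, 3 head gap genes, 9 pair-rule genes, 3 segment polarity genes, 8 Hox genes and 2 Hox cofactors.

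The binding data came from chromatin immunoprecipitation sequencing of ranshi-eGFP in whole Drosophila melanogaster embryos. The embryos were 0 to 24 h old, came from a strain with an insertion that encodes ranshi fused to eGFP, and were processed with an anti-GFP antibody. ranshi is a zinc finger protein of the insect ZAD family. There was 1 group, these ranshi-GFP embryos, in 2 biological replicates, and no other genotype, treatment or stage was compared. The sources used here do not name the sequence that drives the fusion, and control libraries were not analysed here. No read depth stands in the files. Since whole embryos of mixed stages were used, binding in few cells and weaker binding in many cells cannot be told apart.

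In textbook accounts, maternal factors form gradients that switch on gap genes in broad domains, and gap factors then position the stripes of pair-rule genes. Pair-rule factors set up the segment polarity genes, which keep the segment borders. Hox genes give each segment its identity, and their homeodomain proteins bind DNA together with the cofactors exd and hth.

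A peak is a stretch where the immunoprecipitated DNA stood above background, and its summit is the highest point. There were 4 thresholded lists: a conservative set of 2984 peaks and a larger set of 5373 peaks for the series, a set of 3636 peaks for replicate 1 and a set of 3149 peaks for replicate 2. Behind each stood a ranked list of candidate peaks, with 89391 candidates for the conservative set, 132943 for the larger set, 112688 for replicate 1 and 83284 for replicate 2. Signal is the peak caller's own value, given here as the authors deposited it, and rank 1 is the highest signal of a list. Signals were not scaled between lists, so replicates were compared by rank. A rank given for a replicate is the rank among all its candidates. The score, at most 1000, rises with reproducibility, and all thresholded peaks had at least 830, a global irreproducible discovery rate (IDR) of 0.01. A gene's promoter was taken as 500 bp to each side of any of its transcript starts, and its window as the gene with 5 kb on each side.

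The sequences under 8 of the peaks are shown first, as examples. They are the peak of best rank in a gene's window (slp2), 4 peaks at the genes' own starts (bcd, Dfd, opa and h), the peak beyond the head gap gene oc, and intronic peaks that both replicates held at Abd-B and hth. Each is 201 bp around the summit, read from the plus strand of the RefSeq assembly of the same build (dm6), 5′ to 3′. Capitals mark the word CACTG or its reverse complement CAGTG.
slp2, upstream (2L:3832416-3832616): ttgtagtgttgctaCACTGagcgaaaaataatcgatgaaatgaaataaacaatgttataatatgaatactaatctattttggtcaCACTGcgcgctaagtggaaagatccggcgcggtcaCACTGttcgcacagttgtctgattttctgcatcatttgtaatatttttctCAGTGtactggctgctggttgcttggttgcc
oc, downstream (X:8627258-8627458): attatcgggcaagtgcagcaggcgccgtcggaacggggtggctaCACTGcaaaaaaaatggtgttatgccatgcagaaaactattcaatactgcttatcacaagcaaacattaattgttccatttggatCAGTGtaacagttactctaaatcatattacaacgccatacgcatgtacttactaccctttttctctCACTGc
bcd, promoter (3R:6759557-6759757): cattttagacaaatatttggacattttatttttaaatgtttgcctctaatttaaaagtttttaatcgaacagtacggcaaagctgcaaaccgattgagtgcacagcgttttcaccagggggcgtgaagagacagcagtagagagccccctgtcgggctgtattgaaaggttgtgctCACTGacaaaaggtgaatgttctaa
Dfd, promoter (3R:6791365-6791565): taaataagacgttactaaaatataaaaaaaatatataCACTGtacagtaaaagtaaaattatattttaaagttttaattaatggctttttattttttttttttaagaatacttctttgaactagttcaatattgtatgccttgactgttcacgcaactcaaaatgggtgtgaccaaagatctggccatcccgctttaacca
opa, promoter (3R:4852434-4852634): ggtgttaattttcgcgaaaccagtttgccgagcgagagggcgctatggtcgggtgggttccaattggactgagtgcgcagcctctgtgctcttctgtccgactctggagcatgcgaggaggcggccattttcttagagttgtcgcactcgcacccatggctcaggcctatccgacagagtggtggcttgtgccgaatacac
h, start (3L:8675681-8675881): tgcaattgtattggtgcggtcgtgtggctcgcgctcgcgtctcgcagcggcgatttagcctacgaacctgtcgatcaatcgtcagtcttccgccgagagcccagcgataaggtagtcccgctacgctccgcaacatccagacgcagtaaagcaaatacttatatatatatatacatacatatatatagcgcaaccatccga
Abd-B, intron (3R:16969944-16970144): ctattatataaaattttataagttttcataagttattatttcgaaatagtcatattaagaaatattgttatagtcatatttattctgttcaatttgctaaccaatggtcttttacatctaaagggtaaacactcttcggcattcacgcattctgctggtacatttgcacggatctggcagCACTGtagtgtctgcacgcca
hth, intron (3R:10560693-10560893): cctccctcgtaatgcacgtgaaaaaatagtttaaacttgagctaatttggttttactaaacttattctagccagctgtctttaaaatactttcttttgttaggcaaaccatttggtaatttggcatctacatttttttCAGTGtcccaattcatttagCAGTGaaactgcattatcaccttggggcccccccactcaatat

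At slp2, 4 copies of the word lay within these 201 bp, at oc 3, and at hth 2. The bcd, Dfd and Abd-B windows held 1 copy each, and the opa and h windows held 0. Among windows not shown, those of the conservative peaks at the Pomp start beyond cad and the modSP start beyond Ubx held 0. The window of the highest Antp peak, also not shown, held 1. By comparison, 54% of all 2984 conservative summits and 29.4% of 13945 windows of the same length centred 160 bp upstream of protein-coding genes held at least 1 copy. The G+C content was 57.2% at the opa start and 50.2% at the h start, against 26.9% at the Dfd promoter and 32.8% at the Abd-B intron. The windows thus ranged from AT-rich to G+C-rich. A match here describes letters and is no evidence of a binding site. The word itself was chosen with earlier results of these data known.

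In the conservative set, 12 of the 33 patterning genes had a summit in their window, or 36.4% (exact 95% interval 20.4 to 54.9%), against 36.3% of all protein-coding genes. The 12 were bcd, cad, oc, h, slp2, inv, lab, Dfd, Antp, Ubx, Abd-B and hth. The share was at the genome-wide level, and it is therefore not a result about these genes. At their own promoters the conservative set had a summit in 2 of 33 genes, bcd and Dfd, or 6.06% (0.743 to 20.2%), against 12.7% of all genes. The interval for the patterning genes includes the share of all genes. In 7 genes, namely cad, inv, lab, Antp, Ubx, Abd-B and hth, a summit lay inside the gene itself, or 21.2% (8.98 to 38.9%), against 8.62% of all genes. All 7 were between 12.4 and 132 kb long, the median over all protein-coding genes was 2.16 kb, and this count was not matched for length.

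In each of the other lists the share of patterning genes was below that of all genes. In the larger set, 14 patterning genes (42.4%, 25.5 to 60.8%) had a summit in the window, against 51.2% of all genes, and 4 (12.1%, 3.4 to 28.2%) had 1 at a promoter, against 20.5%. The replicate 1 set had 12 genes in the window count (36.4%) and 2 in the promoter count, against 40% and 14.5% of all genes. The replicate 2 set had 10 genes (30.3%, 15.6 to 48.7%) and 4 at promoters, against 38.2% and 13.9% of all genes. Each interval for the patterning genes included the share of all genes in the same list. All intervals cover counting error only.

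**Figure D1:**
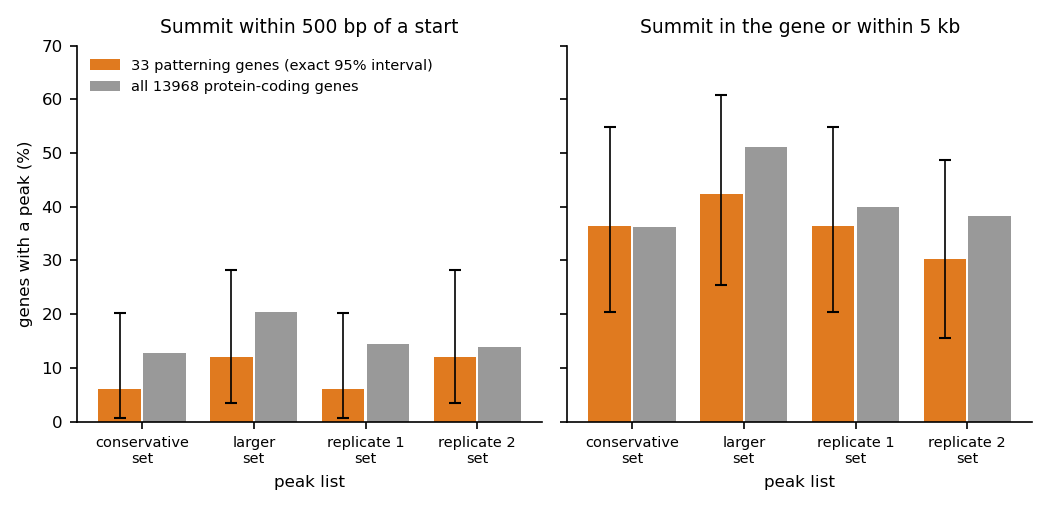
Percentage of genes with a peak summit (y axis) in the 4 thresholded lists (x axis), for the 33 patterning genes (orange, with exact 95% binomial intervals) and for all 13968 protein-coding genes (grey), at promoters (left) and in the gene or within 5 kb (right). In the conservative set the window share was 36.4% for the patterning genes and 36.3% for all genes, and each interval in both panels includes the height of the grey bar.

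Gene length differed widely within the list, and the window of a longer gene spans more sequence. The patterning genes had a median length of 4.21 kb, against 2.16 kb for all protein-coding genes, with 2.57 kb for the gap genes and 30.6 kb for the Hox genes. Of the patterning genes under 5 kb, 3 of 18 (16.7%) had a conservative summit in the window, namely bcd, h and slp2, against 32.2% of all genes of that length. Of those of 5 to 20 kb, 3 of 6 (50%) had 1, namely cad, lab and Dfd, against 45.6%. Of those of 20 kb or longer, 6 of 9 (66.7%) had 1, namely oc, inv, Antp, Ubx, Abd-B and hth, against 55.4%. Both the patterning genes and all genes thus held peaks more often where they were longer. The length classes hold few patterning genes, and a role of length was not tested.

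Counted per length of window, the patterning genes had 23.2 conservative peaks per Mb (22 peaks in 0.948 Mb), against 24.9 per Mb for all protein-coding genes. The larger set gave 38 per Mb against 44.4, replicate 1 26.4 against 29.2, and replicate 2 17.9 against 26.7. Among the classes, the conservative density was 83.3 per Mb at the maternal genes, 0 at the gap genes, 17.6 at the head gap genes, 15.4 at the pair-rule genes, 13.9 at the segment polarity genes, 24 at the Hox genes and 32 at the cofactors. The class values rest on between 0 and 10 peaks each.

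**Figure D2:**
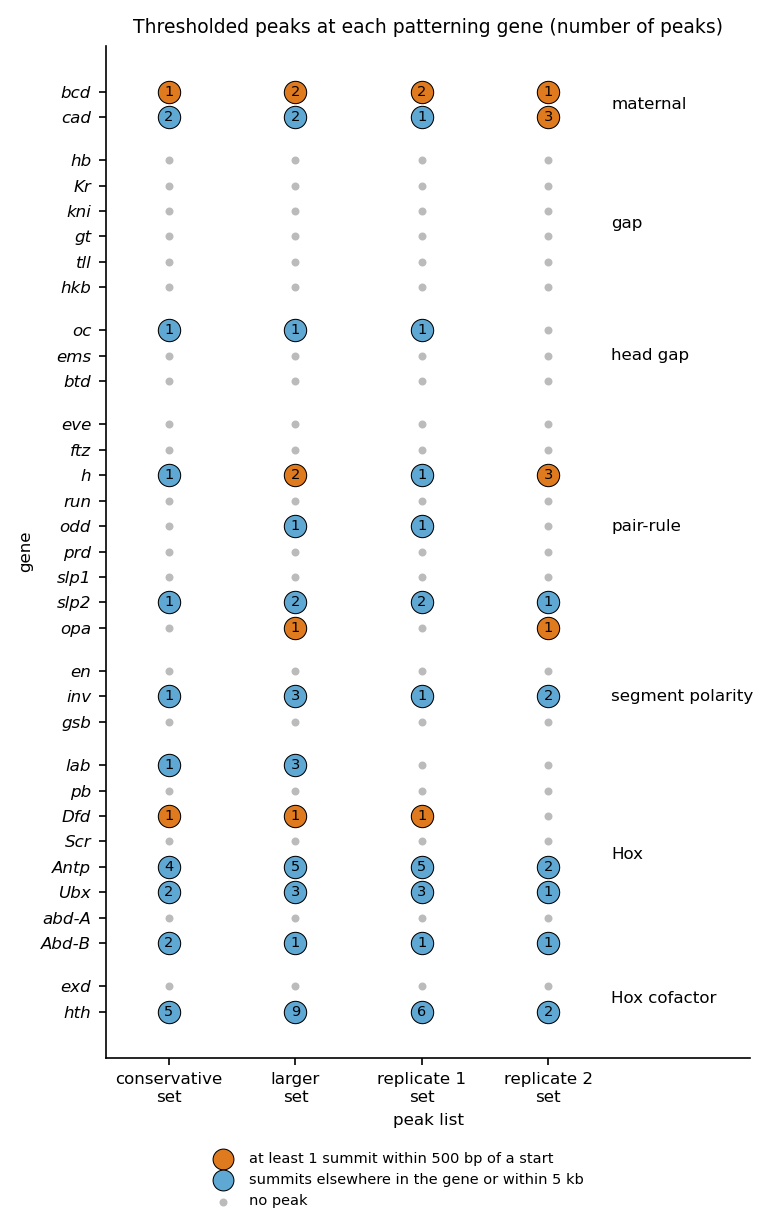
Number of thresholded peaks in the window of each patterning gene (rows, by class) in each of the 4 lists (columns). Orange circles mark genes with a summit within 500 bp of a start, blue circles those with summits elsewhere in the window, and grey dots stand for no peak. The 6 gap gene rows have grey dots in all 4 columns, and 9 genes have circles in all 4.

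Both maternal genes had a conservative peak in their window. bcd (FBgn0000166, 3R:6755842-6759466, minus strand) encodes the homeodomain protein of the anterior gradient. Its peak at 3R:6759499-6759814 had its summit 191 bp upstream of the start, with a signal of 147 (rank 1379 of 2984). The candidate there reached 103 in replicate 1, at rank 1366, and 47.2 in replicate 2, at rank 2156. It was in the thresholded sets of both replicates and was the single promoter peak of a patterning gene found in all 4 lists. The larger set added a peak at 3R:6762955-6763270, 3647 bp upstream of bcd and 291 bp upstream of Ama, which encodes a secreted immunoglobulin-type protein. That peak had rank 887 in replicate 1 and rank 66705 in replicate 2, so the replicates differed widely there.

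cad (FBgn0000251, 2L:20770731-20783135, plus strand) encodes a homeodomain activator of the posterior body. Its higher peak, at 2L:20787343-20787477, had a signal of 219 (rank 763) and was in both replicate sets, at rank 912 in replicate 1 and 637 in replicate 2. That summit lay 4265 bp downstream of cad and 256 bp upstream of the start of Pomp, a proteasome maturation gene, so Pomp and not cad was the closest gene. The other conservative peak lay in a cad intron at 2L:20780767-20781082, with a signal of 98.5 (rank 2189). It was strong in replicate 2 (signal 75.5, rank 881) and weaker in replicate 1 (signal 30.5, rank 6996), and was thresholded in replicate 2 alone. At the cad start itself, replicate 2 had a thresholded peak 184 bp upstream at 2L:20770402-20770691 (signal 40.1), and replicate 1 held no candidate overlapping it.

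The 6 gap genes, hb, Kr, kni, gt, tll and hkb, had 0 thresholded peaks in their windows in each of the 4 lists. Their products are zinc finger proteins (hb, Kr, hkb), nuclear receptors (kni, tll) and a leucine zipper protein (gt). A count of 0 of 6 genes allows a share of up to 45.9% by the exact interval, so the 36.3% of all genes lies within it. The nearest conservative summit was 10810 bp from hkb, 21636 bp from hb, 33512 bp from tll, 39820 bp from gt, 76693 bp from kni and 206753 bp from Kr. Over all 4 lists the nearest summit was 14222 bp from hb, 19041 bp from tll, 15304 bp from kni and 59251 bp from Kr. For hkb and gt the shortest distances over the lists were 10810 and 39800 bp. Candidates under the threshold were present at all but Kr. The best rank in replicate 2 was 1995 at hb, with a best score of 603, which is under the limit of 830. At gt the best ranks over the 4 ranked lists ran from 27494 to 46099. Kr had no candidate in its window in any ranked list.

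Of the 3 head gap genes, oc had a peak, and ems and btd had none in any thresholded list. oc (FBgn0004102, X:8630159-8650681, minus strand), also called orthodenticle, encodes a homeodomain protein of head development. Its peak at X:8627341-8627435 lay in intergenic sequence 2801 bp beyond the gene's end, with a signal of 166 (rank 1172). It ranked 998 in replicate 1 (signal 128) and 7298 in replicate 2 (signal 25.9), and was thresholded in replicate 1 and not in replicate 2. For btd, an Sp-type zinc finger gene, the nearest conservative summit was 6419 bp away, just outside the window. For the homeodomain gene ems it was 10324 bp away.

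Among the 9 pair-rule genes, slp2 and h had conservative peaks, and odd and opa had peaks in the larger set and 1 replicate each. slp2 (FBgn0004567, 2L:3836840-3839185, plus strand) encodes a forkhead protein. Its peak at 2L:3832426-3832626 had the best rank of any peak at a patterning gene in the conservative set, with a signal of 391 (rank 273). The candidate ranked 265 in replicate 1 (signal 288) and 490 in replicate 2. It was therefore near the top of both replicates. The summit lay in intergenic sequence 4324 bp upstream of the slp2 start and 5417 bp from slp1, its neighbouring paralogue, so that slp1 was counted as having no peak. The larger set added a peak at 2L:3840952-3841267, 1925 bp beyond the end of slp2 (signal 68.9), which replicate 1 held and replicate 2 did not.

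h (FBgn0001168, 3L:8675759-8679253, plus strand) encodes a basic helix-loop-helix repressor. Its conservative peak at 3L:8672578-8672893 lay 3023 bp upstream of the start, with a signal of 104 (rank 2095). It was in both replicate sets, at rank 3752 in replicate 1 and 1944 in replicate 2. The start of h had a peak in the larger set, at 3L:8675623-8675938 with the summit 22 bp inside the gene (signal 103). That peak was in the replicate 2 set (signal 67.1, rank 1095 among candidates) and ranked 68311 in replicate 1 (signal 11.2). Replicate 2 also had a peak 4781 bp beyond the gene's end (signal 41.9), which no other thresholded list held.

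The opa gene (FBgn0003002, 3R:4852813-4869979, plus strand), which encodes a Zic-type zinc finger protein, showed the same split as the h start. Its promoter peak at 3R:4852376-4852691, 279 bp upstream, was in the larger set with a signal of 73.2 and in the replicate 2 set. The candidate ranked 1718 in replicate 2 (signal 52.7) and 64584 in replicate 1 (signal 11.9). odd, a zinc finger gene, went the other way. Its peak 3238 bp beyond the gene's end, at 2L:3600828-3601143, was in the larger set (signal 69.1) and the replicate 1 set (signal 59.6), and replicate 2 held no candidate overlapping it. The homeodomain genes eve, ftz and prd, the Runx gene run and the forkhead gene slp1 had no thresholded peak in any list. The nearest conservative summit was 19402 bp from eve, 46290 bp from ftz, 35426 bp from run and 17757 bp from prd. Other lists had a summit closer to ftz (15556 bp, replicate 1) and prd (8067 bp, replicate 2), with nearly the same distances for eve and run.

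Of the segment polarity genes, inv had a conservative peak, and en and gsb had no thresholded peak. inv (FBgn0001269, 2R:11474465-11509695, plus strand) and en encode related homeodomain proteins and lie next to each other. The inv peak at 2R:11500486-11500801 was intronic, 24936 bp from the nearest inv start, with a signal of 124 (rank 1699). It ranked 1678 in replicate 1 (signal 87.6) and 3484 in replicate 2 (signal 36.7), and was in both replicate sets. Its summit was also the closest conservative one to en, at 23362 bp. For gsb, a paired-type homeodomain gene, the nearest was 42106 bp away, and 20967 bp away in the larger set. The larger set added another intronic peak at 2R:11500016-11500331 (signal 64.5) and a peak at 2R:11469569-11469884, 4738 bp upstream of the gene (signal 69.4).

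Of the 8 Hox genes, 5 had a conservative peak in their window (62.5%, exact interval 24.5 to 91.5%), namely lab, Dfd, Antp, Ubx and Abd-B. Over all protein-coding genes 36.3% had such a peak, and the interval includes that share. Of the 6 Hox genes of 20 kb or longer, 3 (50%) had such a peak, namely Antp, Ubx and Abd-B, against 55.4% of all genes of that length. pb, Scr and abd-A had no thresholded peak in any list. In the replicate sets, 4 Hox genes (50%) had a peak in replicate 1, against 40% of all genes. In replicate 2, 3 (37.5%) had 1, against 38.2% of all genes. Dfd (FBgn0000439, 3R:6791836-6802428, plus strand), which specifies maxillary and mandibular segments, was the single Hox gene with a promoter peak. That peak at 3R:6791307-6791622 had its summit 371 bp upstream of the start, with a signal of 87.5 (rank 2423). The candidate reached 44.1 in replicate 1, at rank 3783, and replicate 2 held no candidate overlapping it. lab (FBgn0002522, 3R:6661427-6678590, minus strand), the most anterior Hox gene, had an intronic peak at 3R:6665360-6665675 with a signal of 65.2 (rank 2834) and a score of 834, just over the limit. It ranked 5149 in replicate 1 and 4364 in replicate 2 and was in neither replicate set. The larger set added an intronic lab peak at 3R:6667352-6667667 (signal 69.1). It also added a peak at 3R:6657324-6657639 (signal 58.2), 3945 bp beyond the end of lab and 40 bp upstream of the CG1307 start. Neither of these was in a replicate set. For pb the nearest conservative summit was 17594 bp away, for Scr 31655 bp and for abd-A 8351 bp.

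Antp (FBgn0260642, 3R:6896253-6999228, minus strand), which specifies thoracic identity, had 4 conservative peaks, all in introns. The highest, at 3R:6920030-6920345, had a signal of 156 (rank 1259) and ranked 1285 in replicate 1 and 2008 in replicate 2. It was the Antp peak that both replicate sets held. The other 3, at 3R:6914369-6914684, 3R:6912376-6912691 and 3R:6936177-6936492, had signals of 143, 140 and 111. They were thresholded in replicate 1 and not in replicate 2, where they ranked 3912, 3291 and 2720. The larger set added another Antp peak at 3R:6903311-6903626 (signal 81.4), in an exon of a non-coding RNA. Replicate 2 alone had a peak 3037 bp beyond the end of Antp (signal 53.3).

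Ubx (FBgn0003944, 3R:16656623-16734426, minus strand), which specifies posterior thoracic identity, had 2 conservative peaks. The higher one, at 3R:16655691-16656006 with a signal of 113 (rank 1895), lay 774 bp beyond the gene's end and 187 bp upstream of the start of modSP, an immune serine protease gene. Both replicate sets held it, at rank 3039 in replicate 1 and 1889 in replicate 2. The other, in an intron at 3R:16704279-16704594 (signal 91.6, rank 2335), was in neither replicate set. Inside Ubx itself, no peak was thresholded in both replicates. A peak at 3R:16717967-16718282 was in the larger set (signal 70.5) and the replicate 1 set, and a peak at 3R:16673209-16673504 (signal 50.6) was in the replicate 1 set alone. Both were intronic.

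Abd-B (FBgn0000015, 3R:16927212-16972236, minus strand), which specifies the posterior abdomen, had an intronic peak at 3R:16969886-16970201, 1470 bp upstream of its nearest start. Its signal was 128 (rank 1640), and it ranked 2422 in replicate 1 (signal 64.4) and 948 in replicate 2 (signal 72.7). All 4 thresholded lists held it. The other conservative peak, at 3R:16958209-16958524 (signal 68.1, rank 2814, score 848), was in none of the other 3 lists.

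**Figure D3:**
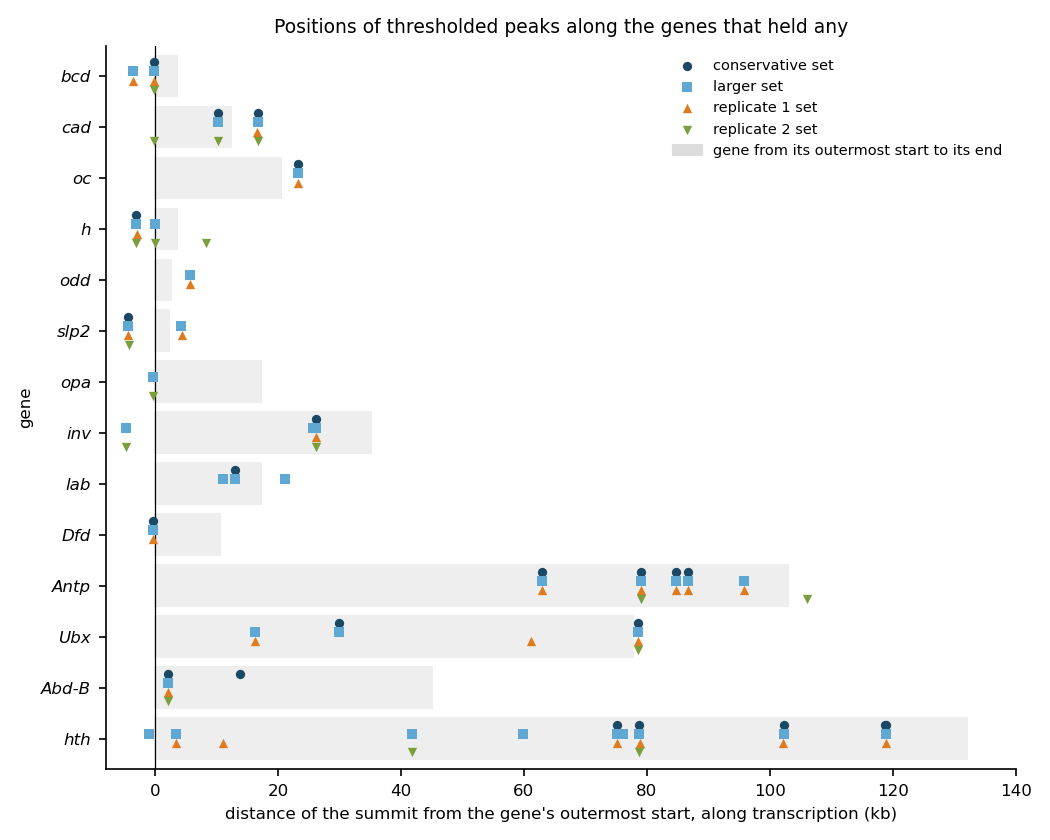
Positions of the thresholded summits (x axis, kb along transcription from the gene's outermost start) for the 14 patterning genes with a peak in any list (rows). Grey bars span each gene, and circles, squares, upward and downward triangles stand for the conservative, larger, replicate 1 and replicate 2 sets. Symbols at the start occur at bcd, cad, h, opa and Dfd, and those of Antp and hth are spread through the gene bodies.

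The Hox genes lie in 2 clusters on 3R, and the sequence between the genes was searched as well. The Antennapedia complex, from lab to Antp (3R:6661427-6999228, 338 kb), held 7 conservative peaks (20.7 per Mb), 11 of the larger set, 9 of replicate 1 and 3 of replicate 2. bcd lies within that span and its promoter peak is among the 7. The bithorax complex, from Ubx to Abd-B (3R:16656623-16972236, 316 kb), held 5 conservative peaks (15.8 per Mb), 8 of the larger set, 7 of replicate 1 and 4 of replicate 2. Neither density was above the 24.9 per Mb of all gene windows.

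The highest conservative peak of either cluster lay between protein-coding genes. At 3R:16798705-16799020, 8351 bp from abd-A and 1737 bp from the start of the non-coding RNA CR45750, the signal was 193 (rank 940 of 2984). It ranked 1219 in replicate 1 (signal 112) and 656 in replicate 2 (signal 87.5), so both replicates placed it high. A further conservative peak at 3R:16869228-16869543 (rank 2154) lay in an intron of the long non-coding RNA iab8, 39337 bp from abd-A. Its summit also lay within the protein-coding gene MSAmiP. The peak overlapped peaks of both replicate sets, at rank 1726 in replicate 1 and 6416 in replicate 2. The larger set added 2 peaks in an intron of the non-coding RNA bxd (signals 93.3 and 92.2) and 1 in an intron of iab8, 7952 bp from Abd-B (signal 92.5). Neither replicate held a candidate overlapping the bxd peak of signal 93.3. The other bxd peak and the iab8 peak were in the replicate 1 set (signals 71.7 and 66.5), and replicate 2 held no candidate overlapping them. In the Antennapedia complex the larger set added a peak at 3R:6881644-6881959 (signal 56.7), in an intron of the non-coding RNA CR44931 and 14451 bp from Antp. That peak was also in the replicate 1 set (signal 53.9). Replicate 2 held no candidate overlapping that peak. These peaks lay outside the 5 kb windows and are not among the 22.

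Of the Hox cofactors, hth had peaks in every thresholded list and exd, a Pbx-type homeodomain gene, in none. The nearest conservative summit to exd was 93882 bp away. hth (FBgn0001235, 3R:10507561-10639568, minus strand) encodes a Meis-type homeodomain protein that brings exd into the nucleus, and at 132 kb it is the longest gene of the list. It had 5 conservative peaks, all intronic. The highest, at 3R:10560739-10560823, had a signal of 168 (rank 1146), ranked 1495 in replicate 1 (signal 95.3) and 1022 in replicate 2 (signal 69.8), and was in both replicate sets. The other 4, at 3R:10537196-10537511, 3R:10564303-10564618, 3R:10520488-10520803 and 3R:10520688-10521003, had signals of 132, 95.7, 69.7 and 7.3 and were thresholded in replicate 1 and not in replicate 2. The last of these overlaps the one before it and matched the same candidates. The larger set held 9 peaks at hth. Its highest there, at 3R:10597668-10597830, had a signal of 260 (rank 581 of 5373). It was in the replicate 2 set (signal 69.3, rank 1032 among candidates), and replicate 1 held no candidate overlapping it.

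The replicates shared part of these peaks. Over the 4 lists the peaks at the patterning genes merged into 42 distinct sites, of which 9 were in all 4 lists, 9 in 3, 12 in 2 and 12 in 1. Both replicate sets held 9 sites, replicate 1 alone held 16, replicate 2 alone 8, and 9 were in neither. By gene, 9 genes had a peak in both replicate sets, namely bcd, cad, h, slp2, inv, Antp, Ubx, Abd-B and hth. For cad and Ubx, the peak that both sets held lay at the starts of the neighbours Pomp and modSP. Dfd, oc and odd had a peak in replicate 1 alone, and opa in replicate 2 alone. The same counts are not given for all protein-coding genes, so these are no result about the patterning genes. At the promoters, bcd had a peak in both replicates, Dfd in replicate 1, and cad, h and opa in replicate 2.

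Of the 22 conservative peaks at the patterning genes, 9 (40.9%) overlapped a peak of both replicate sets, against 59.5% of all 2984 conservative peaks. 81.8% overlapped 1 of the replicate 1 set and 45.5% 1 of the replicate 2 set, against 86.5% and 65.5% of all. Their signals had a median of 118 (range 7.3 to 391), against 137 (range 2.16 to 2765) for all conservative peaks. 1 of the 22 (4.55%), the slp2 peak, was in the top 20% of the list by signal, against 20% of all peaks by definition. These differences were not tested, since peaks of 1 gene are not independent replicates.

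**Figure D4:**
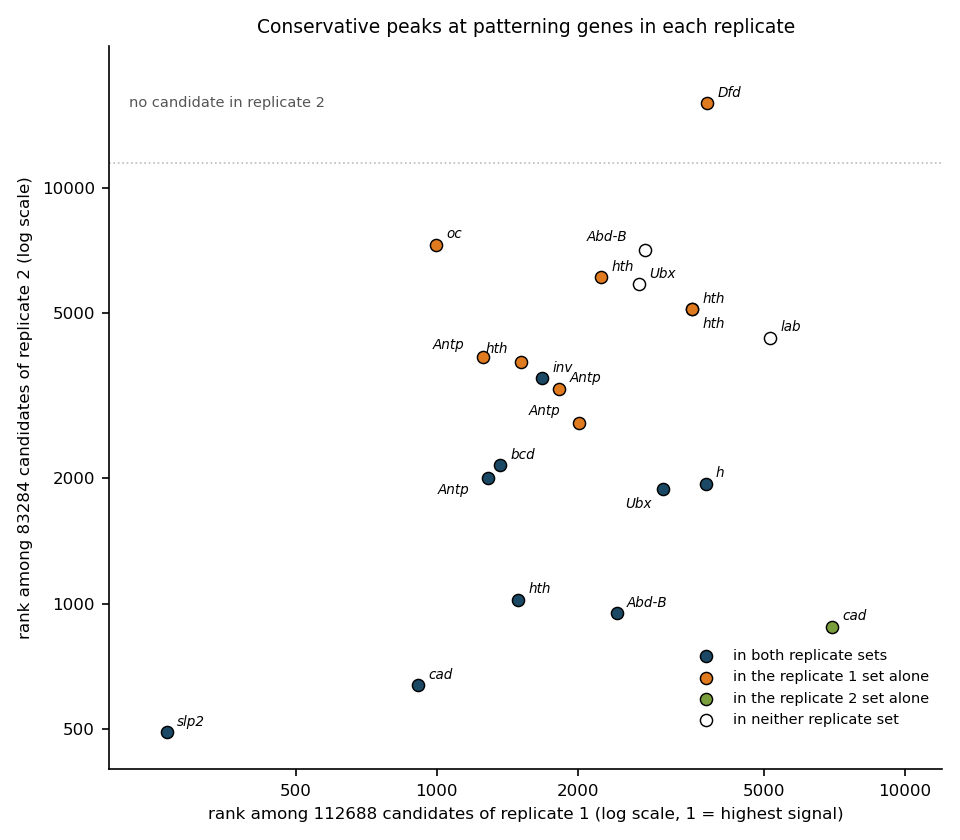
Rank of the candidate under each of the 22 conservative peaks in replicate 1 (x axis) and replicate 2 (y axis), both on log scales with the highest signals toward the lower left. Dark points were in both replicate sets, orange in replicate 1 alone, green in replicate 2 alone and open points in neither, and the Dfd peak is drawn above the dotted line because replicate 2 held no candidate there. The slp2 peak is nearest the lower left corner at ranks 265 and 490, and the 2 overlapping hth peaks share a point.

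By position, 15 of the 22 conservative peaks (68.2%) lay in introns, against 35.9% of all conservative peaks, and 4 (18.2%) lay within 500 bp of a transcript start of any gene, against 47.8%. The 4 were those at bcd and Dfd and those at the starts of the neighbours Pomp and modSP. 3 (13.6%), at oc, h and slp2, were intergenic, against 13.7% of all. None lay in a coding exon. In the larger set, 55.6% were intronic and 22.2% at promoters, against 36% and 45.7% of all peaks. In replicate 1, 56% were intronic and 20% at promoters, against 36.2% and 44% of all. In replicate 2, 35.3% were intronic and 41.2% at promoters, against 31.3% and 55.4% of all. The gaps in the intronic and promoter shares were thus smallest in replicate 2. Its intergenic share was 23.5% (4 of 17 peaks), against 10.4% of all, a wider gap than in the other lists. The differences were not tested. Of the 15 intronic peaks, hth held 5, Antp 4 and Abd-B 2, and these are 3 of the 9 genes of 20 kb or longer.

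**Figure D5:**
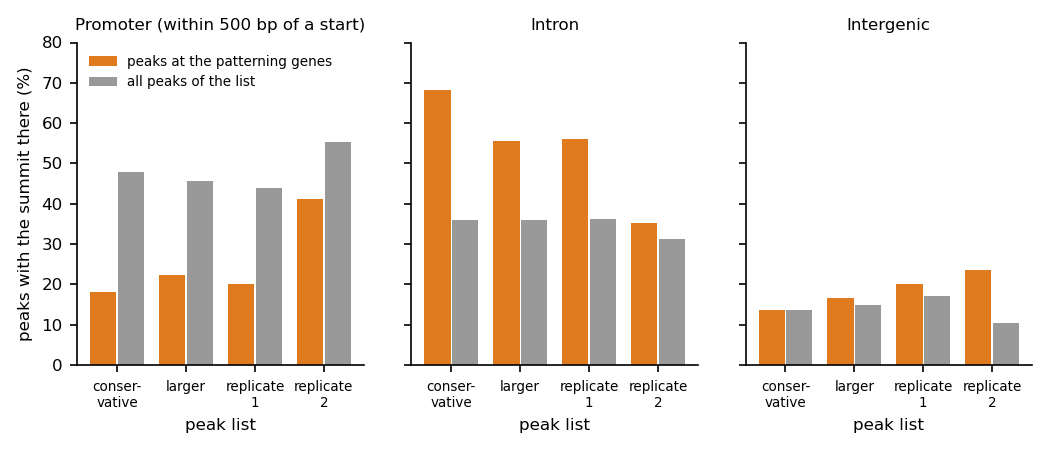
Percentage of peaks (y axis) whose summit lay at a promoter of any gene, in an intron or in intergenic sequence, for the peaks at the patterning genes (orange) and all peaks of the same list (grey) in each of the 4 lists (x axis). The intronic share was 68.2% for the patterning genes and 35.9% for all peaks in the conservative set, and 35.3% for the patterning genes and 31.3% for all peaks in the replicate 2 set.

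The 50 bp to each side of the 22 summits had a G+C content of 31.9% ± 8.85 (SD over 22 peaks), against 33.3% ± 9.73 over all 2984 conservative summits. It ranged from 19.8% at Dfd to 54.5% at lab. For the words TATAAA (a core promoter element), TAATTA (a homeodomain core), TAATCC (bound by bcd), CAGGTA (bound by the early activator Zelda), GAGAG (bound by GAGA factor), GATAAG (bound by GATA factors), TATCGATA (the DRE) and CACTG, both strands were searched, and none of the 8 words contains another. CACTG was in 8 of 22 windows (36.4%), against 20.2% of all, and TATAAA in 6 (27.3%), against 23.1%. TAATTA was in 3 (13.6%), against 11.1%, and GAGAG in 3 (13.6%), against 8.78%. GATAAG was in 2 (9.09%), against 5.19%, and TATCGATA in 1 (4.55%), the peak between Ubx and modSP, against 1.74%. TAATCC was in 0 of these windows, against 3.35% of all. The same held for CAGGTA, against 1.64% of all.

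CACTG was also counted in the 150 bp to each side of each summit. It was in 17 of 22 windows (77.3%), against 67% of all conservative summits, and in 47.7% of the windows 700 bp to each side of the 22, against 42.9% of those beside all summits. The windows with 4 copies were at oc, slp2 and 1 of the hth introns (3R:10564303-10564618). Windows with 0 copies occurred at the cad downstream peak, 1 Antp intron, both Ubx peaks and 1 hth peak. The patterning gene peaks and all conservative peaks thus both held the word more often at the summit than beside it, and no difference between them was tested. Since the word was chosen with earlier results of these data known, its higher share at the summits is no independent evidence.

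The 19 genes with no thresholded peak were followed into the ranked lists. They were hb, Kr, kni, gt, tll, hkb, ems, btd, eve, ftz, run, prd, slp1, en, gsb, pb, Scr, abd-A and exd. The number of all protein-coding genes with no peak in any list is not given, so the 19 are no result about the patterning genes. In the ranked list behind the conservative set, 30 of the 33 patterning genes had a candidate in the window, against 84.7% of all genes, and Kr, ftz and exd had none. The list behind the larger set had candidates at 32 of the patterning genes (95.8% of all genes), replicate 1 at 31 (90.6% of all genes) and replicate 2 at 31 (90.9% of all genes). Kr lacked a candidate in all 4 ranked lists, exd in 2 and ftz in 2.

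Scr had a candidate over the score limit, and a few other genes came near it. Scr, the Hox gene of the labial and anterior thoracic segments, had a candidate in replicate 2 with a score of 923 (rank 2843), over the limit of 830, that the authors' replicate 2 set left out. abd-A, the Hox gene of the anterior abdomen, reached a score of 809 in the list behind the larger set. en reached 712 in that list, pb, the proboscis Hox gene, 669, and the homeodomain gene ftz 654. The others stayed at 637 or less over the 4 ranked lists. With the limit relaxed to a score of 540, a global IDR of 0.0501, 16 of the 33 genes had a candidate of the list behind the conservative set in the window, or 48.5% (30.8 to 66.5%), against 44.9% of all genes. The interval includes the share of all genes. Absence from the thresholded lists, or from a replicate's candidates, does not show that the protein was absent.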

How the data were processed

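Anti-GFP ChIP-seq of ranshi-eGFP whole embryos was analysed from 8 deposited peak lists on dm6, 4 thresholded and 4 ranked, for 2 biological replicates of 1 group. Per the labels, chromatin was sonicated to 200 to 800 bp. Names and versions of the aligner and the peak caller were not given in the sources used here. Each peak carries a score. The deposited score is a whole number up to 1000, and a score of 830 corresponds to a global IDR of 0.01. The deposited signal is the authors' peak caller value and is not scaled between lists. The deposited −log10 values (q-value, and IDR in the ranked lists) were used to describe peaks and to check the score. The other deposited column used was the summit offset. Candidates at or over the limit that the authors' sets left out numbered 69, 163, 160 and 108 for the conservative, larger, replicate 1 and replicate 2 sets. The ranked lists of the series also hold 16 columns for separate inputs, which matched no sample and were not used.

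Gene models were those of Ensembl release 115, and sequences were read from RefSeq's copy of the same assembly. A summit was given to every gene whose window held it. Lists were matched by an overlap of at least 1 bp. Starts of pseudogenes and transposable element genes were left out when the closest gene was named. No test was run, because there was 1 group and genes or peaks are no replicates; counts stand beside the same count over all protein-coding genes. Exact binomial 95% intervals cover counting error only. The genes, classes and words were chosen with earlier results of these data known. Every gene was accounted for: those with a conservative peak in full, then those with peaks in at least 2 thresholded lists. The others were described by the distance to the nearest summit and, for some, by their best candidate. A gene outside the list is named where its start is closest to a peak. Alternatives changed the peak set, the replicate, the signal limit, the overlap, the gene assignment and the window sizes. Python 3.11.15, numpy 2.4.6, pandas 2.3.3, scipy 1.17.1 and matplotlib 3.10.9 were used.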

Additional observations from a re-analysis of the deposited data

How the results depend on the processing

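The count of patterning genes with a conservative summit at a promoter was 2. It was 4 in the larger set, 1 among the conservative peaks at or over the median signal and 1 with a promoter window of 200 bp. The replicates' own sets gave 2 (replicate 1) and 4 (replicate 2). The count with a summit in the window was 12. It was 6 at or over the median signal and 7 when the summit had to lie inside the gene. The replicate 1 set gave 12 and the replicate 2 set 10. The count of distinct peaks was 22. It was 36 in the larger set, 8 at or over the median signal and 12 when a peak went to the closest gene of any type. The replicate 1 set gave 25 and the replicate 2 set 17. Candidates with a score of 540 or more gave 34 distinct peaks and those with 830 or more gave 22. These score limits and the sequence window of 150 bp to each side were chosen after seeing the data. No other alternative moved a count by more than 1.5 times. With counts this small, 1 or 2 genes decide the promoter result. Read depth and control libraries were not analysed here, so what depth limits cannot be given. No paired analysis was possible because there was 1 group and no test.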

Other observations

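Some of the peaks counted for the patterning genes lay nearer to the start of another gene. When each conservative peak was given to the gene of any type whose start was closest, 12 of the 22 distinct peaks went to a patterning gene, and when it was given to the closest protein-coding gene, 17 did. The peaks at the starts of Pomp (256 bp) and modSP (187 bp) were thresholded in each replicate, as were 7 others at patterning genes.

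A few sites were high in 1 replicate and below the middle of the candidates in the other. Counted from the highest signal, the start of h lay 1.31% down the candidates of replicate 2 and 60.6% down those of replicate 1. The start of opa lay 2.06% down in replicate 2 and 57.3% down in replicate 1, and the site beside Ama lay 0.787% down in replicate 1 and 80.1% down in replicate 2. Further such sites were high in replicate 1. A Ubx intron site at 3R:16673209-16673504 lay 2.86% down in replicate 1 and 96.8% down in replicate 2. An hth intron site at 3R:10636037-10636352 lay 2.35% and 52.1% down, and the site beyond the end of slp2 2.3% and 50.2% down. All of these sites except the Ubx site were in the larger set, and none was in the conservative set. The reason for these differences was not tested.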
